A study of Mus musculus with 30 samples.

Results

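The 41 genes described here act at defined points of the cell division cycle, and they were chosen by name as 2 classes: 17 of G1/S and DNA replication and 24 of G2 and mitosis (G2/M). All 41 were found among the 50686 genes of the count files, all 41 passed the filter on low counts that left 15310 genes, and no library had a count of 0 for any of them. They were followed through 30 libraries of osteoclasts, the bone-resorbing cells that form when macrophage-lineage precursors fuse. The mice were C57BL/6J, either WT (wild type) or Terc-/- (here KO), which lack the RNA template of telomerase, and their bone marrow supplied the macrophages that were cultured. The study asked how osteoclast expression varies with donor age and with Terc genotype. Every culture, in medium with 10% FBS, was given RANKL (100 ng/ml) together with M-CSF (25 ng/ml), and it was stopped after 2 days or once large cells with many nuclei were seen.

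Each of the 10 groups held 3 libraries. WT 2-day cultures came from 6-month and 20-month donors, WT multinucleated cultures from 1-month, 6-month and 20-month donors, and KO multinucleated cultures from 1-month and 6-month donors. Titles of 2 further KO groups, multinucleated cultures of 1-month and 6-month donors, carry the number 519 (set 519), and titles of 1 further WT group, multinucleated cultures of 1-month donors, carry a tag beginning with D1 (set D1). The labels explain neither tag, so these libraries were kept as groups of their own, and KO or WT groups without a tag are called unprefixed where the sets are compared. No source used here says whether libraries of a group came from separate mice or cultures, so p-values measure only the spread between these libraries, which may be technical.

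As background, a cell that commits to division turns on E2F target genes in late G1, which supply cyclin E, the loading factors and helicase of replication origins, and the enzymes that make deoxynucleotides. A later wave, read by the B-MYB and FOXM1 proteins, supplies cyclin B and CDK1, the spindle motors, the mitotic checkpoint and the ubiquitin machinery that ends mitosis. Osteoclast precursors divide in response to M-CSF, and under RANKL they leave the cycle as they mature and fuse, so these genes are commonly read as a measure of dividing precursors in a culture.

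The classes differ in the sequence near their transcription start sites, which is why 5 windows are shown before the values. RefSeq start-site windows of 300 bases (build GRCm38.p6) were at hand for 33 of the 41 genes, 14 of G1/S and 19 of G2/M. They were searched on both strands for the cell cycle homology region TTTGAA and its variant TTTAAA, for the box CCAAT, and for 4 words of the E2F site, TTTCCCGC, TTTCGCGC, TTTGCCGC and TTTGGCGC. Matches that overlapped on opposite strands were both counted. For a gene with several windows, that of lowest genomic coordinate was used, which need not be its main start. The Cdc6 window lies wholly within the annotated span of the gene, which begins at 98907801. The windows of E2f1 and Mcm7, which held no E2F word, and of Cdca8 also lie wholly within the spans of their genes. Capitals mark matches to any of these words in the windows of Cdc6 (chr11:98907901-98908200, plus strand) and Mcm3 (chr1:20820263-20820562, minus strand), both G1/S, and of Cdk1 (chr10:69352863-69353162, minus strand), Cdc20 (chr4:118437294-118437593, minus strand) and Ube2c (chr2:164769679-164769978, plus strand), all G2/M.
Cdc6: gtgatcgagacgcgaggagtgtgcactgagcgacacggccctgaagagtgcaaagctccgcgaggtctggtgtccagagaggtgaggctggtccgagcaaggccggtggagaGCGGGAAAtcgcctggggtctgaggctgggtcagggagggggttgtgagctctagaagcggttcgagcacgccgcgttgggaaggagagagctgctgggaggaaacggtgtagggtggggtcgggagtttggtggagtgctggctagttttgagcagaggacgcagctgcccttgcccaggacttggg
Mcm3: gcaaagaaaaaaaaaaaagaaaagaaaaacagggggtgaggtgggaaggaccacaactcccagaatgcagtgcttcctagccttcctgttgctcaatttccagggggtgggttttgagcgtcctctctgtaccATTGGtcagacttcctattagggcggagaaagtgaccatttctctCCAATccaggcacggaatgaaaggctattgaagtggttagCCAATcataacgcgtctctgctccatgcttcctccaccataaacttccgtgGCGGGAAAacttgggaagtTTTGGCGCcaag
Cdk1: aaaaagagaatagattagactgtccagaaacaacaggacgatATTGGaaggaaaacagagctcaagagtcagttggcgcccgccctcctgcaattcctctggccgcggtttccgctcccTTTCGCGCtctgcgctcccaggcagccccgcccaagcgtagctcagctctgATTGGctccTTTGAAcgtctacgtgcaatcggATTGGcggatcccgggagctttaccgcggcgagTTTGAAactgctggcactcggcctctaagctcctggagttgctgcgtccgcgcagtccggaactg
Cdc20: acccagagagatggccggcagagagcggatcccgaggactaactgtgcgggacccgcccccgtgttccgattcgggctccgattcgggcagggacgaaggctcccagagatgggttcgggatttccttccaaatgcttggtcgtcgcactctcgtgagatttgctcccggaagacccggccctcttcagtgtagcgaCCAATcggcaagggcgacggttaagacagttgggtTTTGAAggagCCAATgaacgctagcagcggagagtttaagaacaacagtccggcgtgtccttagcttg
Ube2c: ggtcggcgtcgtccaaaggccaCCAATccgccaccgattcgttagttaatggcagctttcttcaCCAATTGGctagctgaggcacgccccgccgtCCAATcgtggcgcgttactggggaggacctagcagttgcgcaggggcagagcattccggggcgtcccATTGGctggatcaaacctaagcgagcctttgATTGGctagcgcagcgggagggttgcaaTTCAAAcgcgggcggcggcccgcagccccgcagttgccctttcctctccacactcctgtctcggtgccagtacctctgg

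The word TTTGAA was present in 14 of 19 G2/M windows (73.7%) and in 1 of 14 G1/S windows (7.14%), that of Mcm2. Among the 10850 tested genes with a window the share was 12.2%, and among all 26742 genes with one it was 17.9%. CCAAT stood in 17 of 19 G2/M windows and in 8 of 14 G1/S windows, against 38.3% of tested genes. E2F words had the reverse distribution, with 5 of 14 G1/S windows (35.7%), those of Cdc6, Cdt1, Mcm3, Mcm5 and Mcm6, and 1 of 19 G2/M windows, that of Cdk1, against 4.0% of tested genes. The variant TTTAAA was found in 6 of 19 G2/M windows (31.6%) and 4 of 14 G1/S windows (28.6%), against 9.36% of tested genes. Counted from the annotated start, TTTGAA began at position -18 in Cdc20, at -29 in Ube2c and at -71 and -15 in Cdk1, each with at least 1 CCAAT box upstream. A match is a description of the letters in the window and was not tested as a binding site.

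Total counts were 4269798 to 12987993 in the 6 libraries of set 519 and 13182063 to 25147975 in the other 24. Terc itself could not check the genotype labels, since polyadenylated RNA was selected and its count was 0 to 2 in every library, WT included. Libraries of set D1 held 13791 to 17522 counts of Xist and 0 of Ddx3y, while the other 27 libraries held at most 9 counts of Xist and at least 369 of Ddx3y, so the donors of set D1 read as female and all others as male. The summed level of 12 osteoclast markers (Ctsk, Acp5, Mmp9, Calcr and others) ran from 1700 to 1780 CPM (counts scaled to a common library total) in KO 1-month cultures to 46300 to 48900 in set D1, and markers of red cells and lymphocytes summed to under 1 CPM in every library. Groups with the same stated culture end point thus differed widely in osteoclast marker RNA, and these sums are given beside the comparisons.

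The level of each member, likewise CPM after TMM scaling, is comparable between libraries but not between genes of different length. Per kilobase of exon, the median level over the 10 groups was highest for Pcna, the sliding clamp of DNA polymerase, at 127 CPM per kb, followed by Mcm6 of the replicative helicase at 58.0, and lowest for the long kinetochore gene Cenpf at 4.0. As a median over the groups, the coefficient of variation between replicates ran from 2.87% for Tk1 to 10.3% for Plk1. Its largest value in any single group was 25.0%, for Plk1. Set D1 was the lowest group for 39 of 41 members and set 519 KO 1-month for the other two, Ccne2 and Bub1. The highest group was WT 1-month for 14 members, WT 2-day of 6 months for 12, WT 2-day of 20 months for 13 and KO 1-month for 2, E2f1 and Pcna. From the lowest to the highest group, levels spanned 3.35-fold for E2f1 to 10.7-fold for Ube2c.

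**Figure D1:**
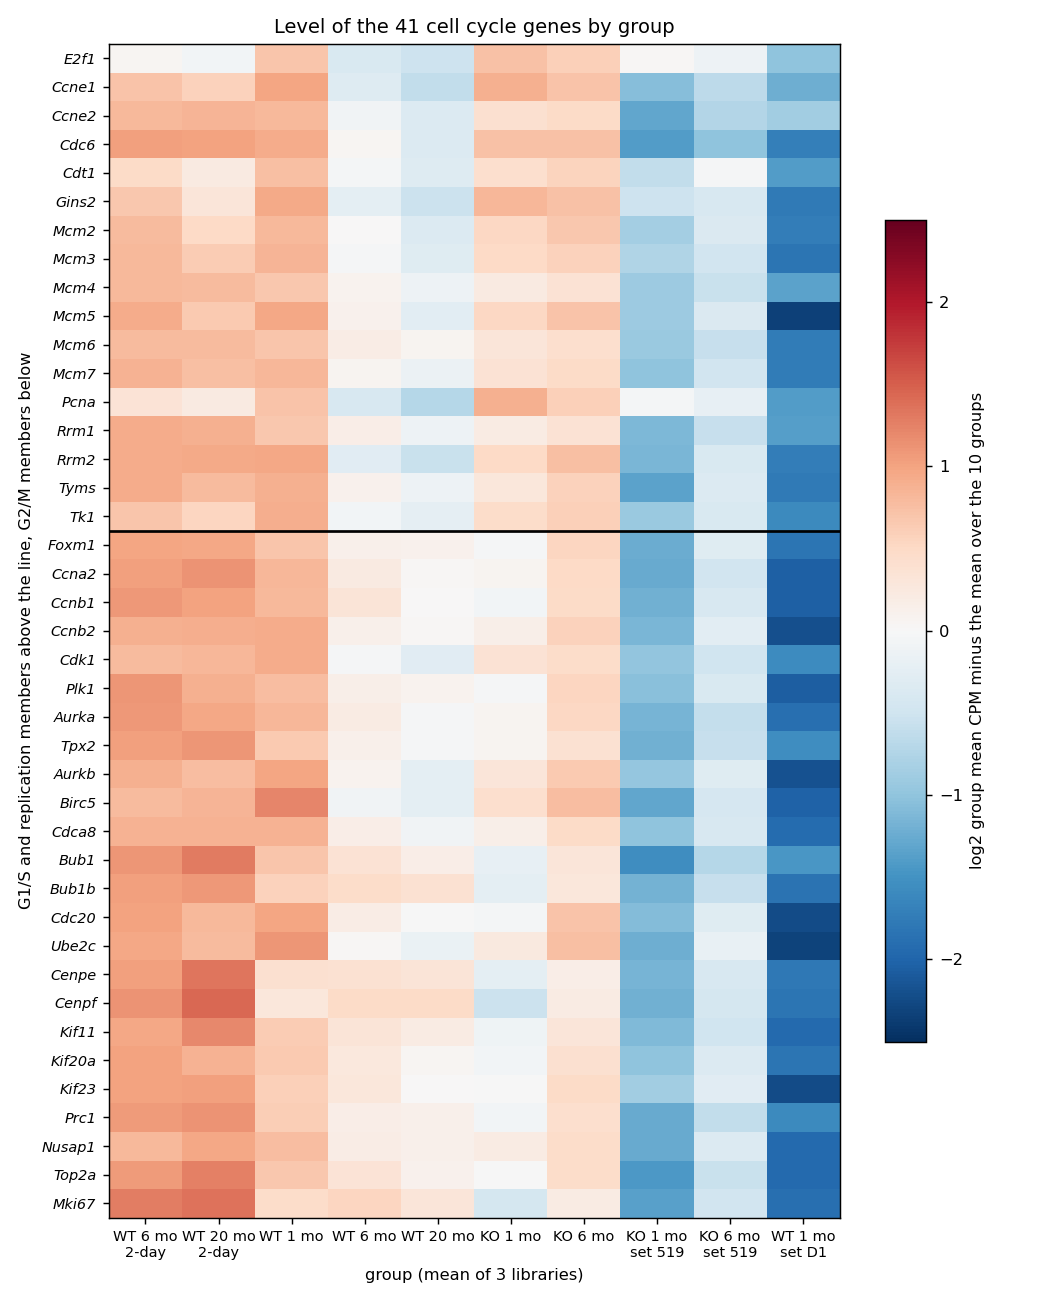
Level of each of the 41 members (rows, G1/S and replication above the line, G2/M below) in each of the 10 groups (columns, mean of 3 libraries), as log2 group mean CPM minus the member's mean over the groups. Both 2-day groups and WT 1-month are red for nearly all members, set D1 is the darkest blue column, and set 519 KO 1-month is the next.

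Among regulators of the G1/S transition, E2f1, the transcription factor that turns on replication genes (chr2:154559407-154569892, GRCm38), stood at 81.6, 79.8 and 80.0 CPM in the 3 WT 1-month libraries and 83.6, 80.5 and 84.8 CPM in KO 1-month. It fell to 40.5, 37.8 and 37 CPM in WT 6-month multinucleated cultures and 31.8, 38.6 and 35 CPM in WT 20-month ones, while KO 6-month libraries held 71.8, 78.2 and 75.9 CPM. The 2-day cultures lay between, with 47, 55 and 53.2 CPM at 6 months and 46.2, 48.5 and 48.8 CPM at 20 months. E2f1 was thus lower in 2-day cultures than in either group of 1-month multinucleated cultures without a title tag. In set 519 it was 58.2, 46.9 and 47.5 CPM at 1 month and 46.8, 47.7 and 42.2 CPM at 6 months, and in set D1 24, 25.5 and 24.8 CPM.

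Ccne1 and Ccne2 encode the cyclins E, which activate CDK2 at the start of S phase. Ccne1 was 42.8, 38.3 and 37.4 CPM in WT 1-month and 39.2, 34.7 and 37.6 CPM in KO 1-month libraries, which overlapped. It was 15.6, 14.8 and 17.7 CPM in WT 6-month, 12.5, 13.5 and 13.4 CPM in WT 20-month and 28.8, 32.5 and 36.8 CPM in KO 6-month libraries. The KO and WT libraries of 6 months did not overlap. Ccne1 measured 33, 32.4 and 33.1 CPM in the 2-day cultures of 6 months and 29.9, 30.3 and 29.9 CPM in those of 20 months. It was low in set 519, with 9.71, 10.9 and 7.95 CPM at 1 month and 12.8, 11.4 and 14.1 CPM at 6 months, and in set D1, with 8.74, 8.63 and 8.31 CPM. Ccne2 did not share the near equality of both genotypes at 1 month, with 65.1, 60.4 and 63.4 CPM in WT and 46.7, 49.5 and 46.4 CPM in KO. At 6 months its order was the reverse, 33.7, 33.3 and 35.2 CPM in WT and 53.4, 50.1 and 47.3 CPM in KO. Both 2-day groups were high, with 67.9, 60.7 and 62.5 and, at 20 months, 71.5, 64.9 and 58 CPM, and WT 20-month multinucleated cultures held 29.2, 30.2 and 26.2 CPM. Its lowest values were 14.2, 14 and 15.9 CPM in set 519 at 1 month, against 20.2, 23.9 and 21.5 CPM at 6 months there and 17.7, 22.2 and 19.1 CPM in set D1.

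Cdc6 loads the MCM helicase onto origins, Mcm5 is a subunit of that helicase and Pcna clamps the polymerase to DNA. Cdc6 was 44.2, 44.3 and 43.6 CPM in 2-day cultures of 6 months and 42.7, 42 and 44.8 CPM in those of 20 months, and 21.8, 22.4 and 23 and 14.9, 18.8 and 17.3 CPM in the multinucleated cultures of the same ages. WT 1-month libraries held 41.5, 40.3 and 41.1 CPM, KO 1-month 36.5, 37.7 and 34 CPM and KO 6-month 36.7, 34.6 and 36 CPM. Its lowest values were in the tagged sets, with 9.4, 8.81 and 6.31 CPM in set 519 at 1 month, 10.9, 11.2 and 10.3 CPM at 6 months and 6.78, 6.86 and 6.23 CPM in set D1. All 9 of these libraries lay below every other library. Mcm5 was 239, 256 and 254 CPM in WT 1-month against 173, 185 and 196 CPM in KO 1-month, and 142, 140.0 and 132 CPM in WT 6-month against 204, 212 and 216 CPM in KO 6-month. WT 20-month cultures had 105, 113 and 103 CPM, and the 2-day cultures 223, 257 and 249 CPM at 6 months and 198, 199 and 209 CPM at 20. In set 519 Mcm5 was 73.5, 65.1 and 66.2 CPM at 1 month and 96.8, 99.6 and 102 CPM at 6 months, and in set D1 25.2, 25.7 and 25.5 CPM. From its lowest group, set D1, to its highest, Mcm5 spanned 9.8-fold, against 4.46-fold to 6.36-fold for the other subunits. Pcna was highest in KO 1-month, at 563, 512 and 521 CPM, above the 500.0, 464 and 438 CPM of WT 1-month. It was 211, 228 and 211 CPM in WT 6-month, 177, 182 and 167 CPM in WT 20-month and 414, 438 and 440.0 CPM in KO 6-month cultures. Both unprefixed KO groups were therefore above the unprefixed WT group of their age. The 2-day cultures held 349, 379 and 352 and 321, 342 and 332 CPM, set 519 305, 266 and 258 and, at 6 months, 250, 252 and 244 CPM, and set D1 107, 108 and 109 CPM.

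Rrm2, the cell-cycle-limited subunit of ribonucleotide reductase, supplies deoxynucleotides in S phase. It was 208, 205 and 194 CPM in 2-day cultures of 6 months and 214, 205 and 201 CPM in those of 20 months, against 90.3, 83.4 and 90.9 and 68.5, 78.7 and 71.4 CPM in multinucleated cultures. WT 1-month cultures held 225, 201 and 202 CPM and KO 1-month 152, 153 and 146 CPM, while KO 6-month held 179, 183 and 177 CPM, every library above all WT 6-month ones. Set 519 had 50.9, 45.5 and 47.9 CPM at 1 month and 86.2, 77.3 and 82.1 CPM at 6 months, and set D1 32.2, 33.7 and 30.4 CPM.

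Of the genes of mitotic entry, Ccnb1 encodes cyclin B1 and Cdk1 its kinase, and Plk1 is a kinase that acts at the centrosome and in cytokinesis. Ccnb1 was 167, 174 and 180.0 CPM in 2-day cultures of 6 months and 165, 162 and 168 CPM in those of 20 months. Multinucleated WT cultures held 142, 140.0 and 148 CPM at 1 month, 102, 97.3 and 107 CPM at 6 months and 80.6, 88.5 and 80.1 CPM at 20 months. In unprefixed WT, Ccnb1 was thus lower with each donor age, and no library of one age overlapped another. KO 1-month libraries had 73.5, 80.3 and 80.4 CPM and KO 6-month 110.0, 117 and 116 CPM, the reverse order by age. In set 519 the values were 35.4, 35.3 and 36 CPM at 1 month and 63, 63 and 60.9 CPM at 6 months, and in set D1 21, 18.5 and 20.0 CPM. Cdk1 was 178, 152 and 155 CPM in WT 1-month and 112, 101 and 113 CPM in KO 1-month libraries. At 6 months KO libraries were the higher ones, with 113, 118 and 121 CPM against 84, 80.0 and 86.3 CPM. Cdk1 in 2-day cultures was 156, 144 and 141 and 148, 151 and 154 CPM, and in WT 20-month multinucleated cultures 71.5, 72.3 and 66.1 CPM. Set 519 held 39.8, 40.9 and 47.2 CPM at 1 month and 62.7, 57.8 and 58.8 CPM at 6 months, and set D1 30.7, 27.4 and 27.3 CPM. Plk1, the member with the widest replicate spread, was 66.9, 67 and 66.6 CPM in WT 1-month and 36.3, 35.7 and 43.6 CPM in KO 1-month libraries. It was 42.9, 43.9 and 44.6 CPM in WT 6-month, 54.9, 60.3 and 55.2 CPM in KO 6-month and 39.8, 47.9 and 37 CPM in WT 20-month cultures. The WT 6-month and 20-month libraries overlapped. Plk1 in 2-day cultures was 74.4, 91.1 and 87 and 71.8, 75.7 and 72.4 CPM, in set 519 24.5, 17.4 and 15.4 and 29.3, 33.7 and 27.7 CPM, and in set D1 10.9, 9.1 and 8.14 CPM.

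Cdc20 activates the anaphase-promoting complex, the ubiquitin ligase that lets sister chromatids part. It was 105, 97 and 103 CPM in WT 1-month and 50.3, 46.2 and 53.5 CPM in KO 1-month libraries, and 60.5, 58.7 and 56.4 CPM in WT 6-month against 82.4, 82.8 and 87.1 CPM in KO 6-month. WT 20-month multinucleated cultures held 52.8, 53.9 and 46.3 CPM and the 2-day cultures 99.1, 107 and 104 and 83, 89.9 and 96.2 CPM. It was 29.9, 23 and 20.3 CPM in set 519 at 1 month, 44, 39.3 and 41.2 CPM at 6 months and 11.6, 11.3 and 9.77 CPM in set D1. Among groups without a tag, KO thus lay below WT at 1 month and above it at 6 months without overlap, while set 519 lay below WT at both ages. Top2a, the topoisomerase that untangles chromosomes, was 607, 610.0 and 621 CPM in 2-day cultures of 6 months and 712, 687 and 693 CPM in those of 20 months. Multinucleated WT cultures had 422, 474 and 504 CPM at 1 month, 375, 350.0 and 388 CPM at 6 months and 307, 338 and 298 CPM at 20 months. KO cultures had 269, 315 and 287 CPM at 1 month and 414, 395 and 384 CPM at 6 months, and the last overlapped WT of that age. In set 519 it was 103, 106 and 115 CPM at 1 month and 205, 194 and 197 CPM at 6 months, and in set D1 75, 81.1 and 72.2 CPM. Mki67, which coats mitotic chromosomes and is the usual proliferation marker, was 813, 879 and 914 CPM and 932, 900.0 and 930.0 CPM in the 2-day cultures. WT multinucleated cultures held 410.0, 507 and 561 CPM at 1 month, 521, 493 and 542 CPM at 6 months and 419, 477 and 417 CPM at 20 months, which overlapped and did not show the age order seen for Ccnb1. KO libraries had 228, 298 and 268 CPM at 1 month and 437, 407 and 393 CPM at 6 months. Mki67 was 116, 147 and 155 CPM in set 519 at 1 month, 251, 255 and 264 CPM at 6 months and 96.4, 105 and 89.9 CPM in set D1.

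**Figure D2:**
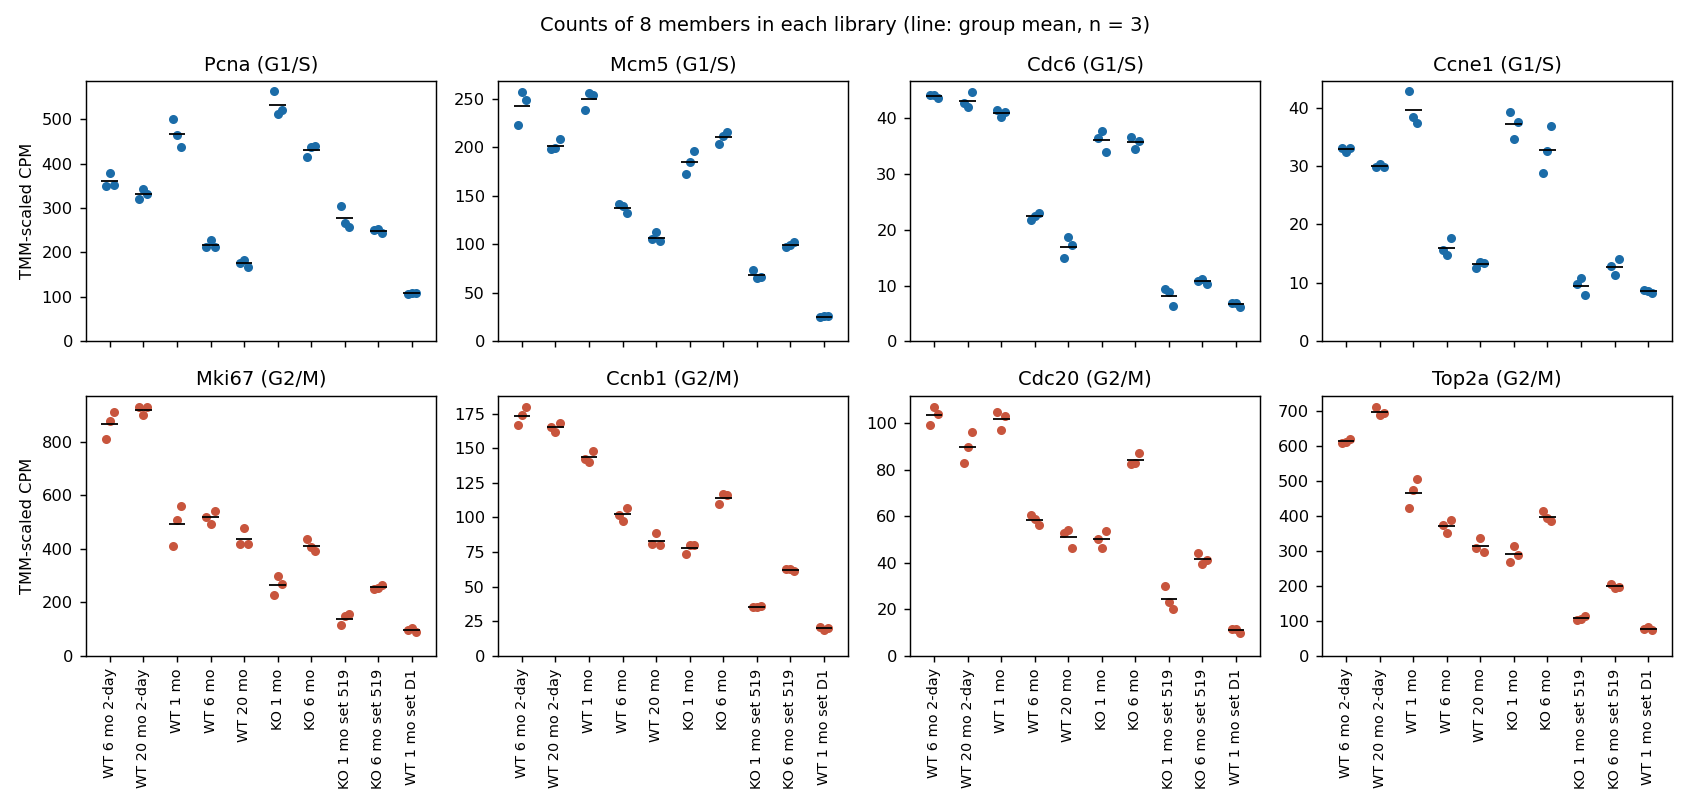
TMM-scaled CPM (vertical axis, linear from 0) of 8 members in each of the 30 libraries, grouped as labelled on the horizontal axis, with lines at the group means (n = 3). Ccnb1 steps down with age in unprefixed WT multinucleated cultures while Mki67 stays near one level, and Pcna is the only one of the 8 that is highest in KO 1-month.

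To compare the classes, the mean log2 CPM of the 17 G1/S and of the 24 G2/M members was taken in each library. The G1/S mean was 6.88 ± 0.04 (SD, n = 3) in 2-day cultures of 6 months, 6.97 ± 0.03 in WT 1-month, 6.08 ± 0.01 in WT 6-month, 6.66 ± 0.02 in KO 1-month and 6.73 ± 0.03 in KO 6-month cultures. The G2/M mean in the same groups was 7.06 ± 0.02, 6.80 ± 0.05, 6.28 ± 0.04, 6.05 ± 0.04 and 6.52 ± 0.02. The balance between the classes, as the G2/M mean minus the G1/S mean, differed by group. It was lowest in KO 1-month libraries, from -0.65 to -0.57, and highest in 2-day cultures of 20 months, from 0.32 to 0.35. WT 1-month libraries lay at -0.24 to -0.13, KO 6-month at -0.24 to -0.19, WT 6-month at 0.18 to 0.23 and WT 20-month at 0.28 to 0.33. Set 519 lay at -0.41 to -0.38 at 1 month and -0.09 to -0.06 at 6 months, and set D1 at -0.46 to -0.43. Unprefixed KO libraries were below unprefixed WT libraries of the same age at both ages without overlap, whereas set 519 KO libraries of 1 month lay above set D1. In each genotype and set with both ages, 1-month libraries lay below 6-month ones. These differences of means over chosen genes are descriptions and carry no test.

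**Figure D3:**
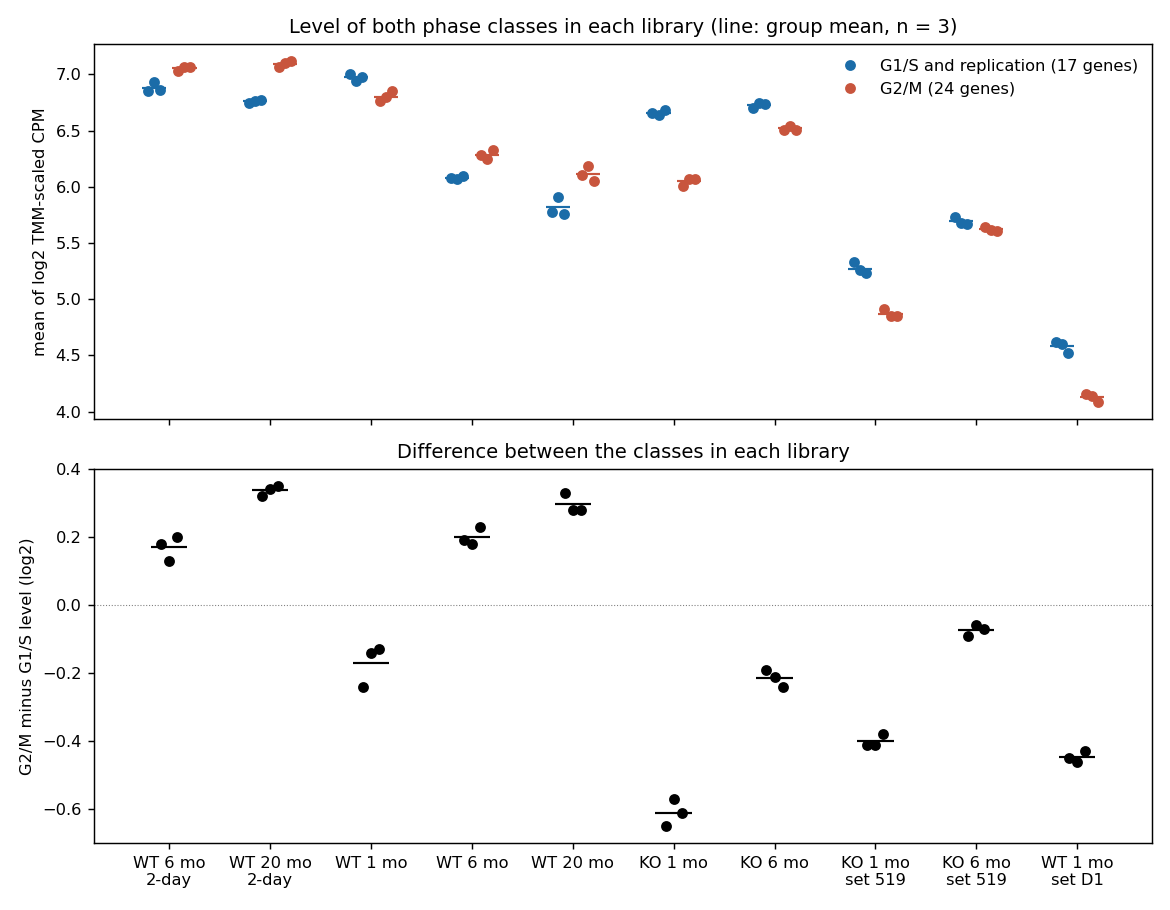
Top, mean log2 TMM-scaled CPM of the 17 G1/S and 24 G2/M members in each library, with lines at the group means (n = 3). Bottom, G2/M mean minus G1/S mean in each library: WT 6-month, WT 20-month and both 2-day groups lie above 0, and all other groups lie below 0.

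From 2-day to multinucleated cultures of WT, all 41 members fell at both ages. At 6 months the 17 G1/S members had a median log2 fold change of -0.81 and the 24 G2/M members of -0.77, and at 20 months -0.92 and -1.0. Of all 15310 genes tested, 27.4% were called lower at 6 months and 26.9% at 20 months, with medians of -0.01 and 0.00. Values after a gene are its log2 fold change ± SE with the Benjamini-Hochberg adjusted p of edgeR's quasi-likelihood test, and genes called higher or lower passed 0.05. Rrm2 fell most of the G1/S members, 2.29-fold at 6 months (-1.20 ± 0.06, adjusted p = 1.3e-18) and 2.83-fold at 20 months (-1.50 ± 0.06, adjusted p = 9.8e-21). Next were Ccne1 at 6 months (-1.03 ± 0.09) and Cdc6 at 20 months (-1.35 ± 0.07). E2f1 fell least at both ages, with -0.43 ± 0.07 and -0.45 ± 0.07. Of the G2/M members, Plk1 (-0.94 ± 0.09) and Ube2c (-0.94 ± 0.07), the ubiquitin-conjugating enzyme of the anaphase-promoting complex, led at 6 months, and Top2a (-1.15 ± 0.06) and the checkpoint kinase gene Bub1 (-1.14 ± 0.06) at 20 months. Mki67 fell 1.67-fold and 2.1-fold. All 12 osteoclast markers rose in the same comparisons, from sums of 4410 to 5010 CPM to 22500 to 24300 CPM at 6 months and from 5390 to 5530 CPM to 24900 to 26600 CPM at 20 months. Stromal markers summed to 3720 to 4070 CPM in 2-day and 1310 to 1700 CPM in multinucleated cultures at 6 months, and to 3080 to 3260 and 2580 to 2990 CPM at 20 months. Their part was not tested. In bulk cultures fewer dividing cells and less RNA per cell cannot be told apart.

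Whether this fall depended on donor age was tested as a difference of the 2 changes. It was larger at 20 months for 3 of 17 G1/S members, Cdc6 (-0.37 ± 0.10, adjusted p = 0.011), Rrm2 (-0.31 ± 0.08, adjusted p = 0.0092) and Rrm1 (-0.25 ± 0.07, adjusted p = 0.017), the large reductase subunit. It was also larger for 9 of 24 G2/M members, led by Top2a (-0.43 ± 0.09, adjusted p = 0.00062) and Bub1 (-0.39 ± 0.09, adjusted p = 0.0026), against 4.86% of all genes. No member was called in the other direction. Cdc6 was not called without WT 20-month multinucleated replicate 1 (-0.28, adjusted p = 0.07). The counts were not firm: without WT 6-month multinucleated replicate 4 the G2/M count was 3, without WT 20-month multinucleated replicate 4 it was 4, and with only these 12 libraries in the fit the counts were 6 and 14.

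Comparing genotypes at 1 month asked how loss of Terc relates to these genes in young donors. In KO cultures all 24 G2/M members were lower than in WT, with a median log2 fold change of -0.76, and 13 of 17 G1/S members were lower, with a median of -0.40. Of all genes 20.8% were called lower. Cdc20 fell most, 2.03-fold (-1.02 ± 0.07, adjusted p = 3e-13), then Bub1 (-0.91 ± 0.06), Mki67 (-0.90 ± 0.09) and Ccnb1 (-0.87 ± 0.05). Top2a, Plk1 and Cdk1 fell 1.61-fold, 1.73-fold and 1.49-fold. Among the G1/S members the nucleotide enzymes led, with Tyms, thymidylate synthase (-0.60 ± 0.08, adjusted p = 2.2e-07), and Rrm2 (-0.48 ± 0.06), and Mcm5 fell 1.35-fold. Not every member followed: E2f1 (0.05 ± 0.07, adjusted p = 0.63), Ccne1 (-0.08 ± 0.08, adjusted p = 0.41) and the helicase factor Gins2 (-0.12 ± 0.08, adjusted p = 0.24) did not pass. Pcna was the 1 member called higher (0.19 ± 0.06, adjusted p = 0.0074), where 20.7% of all genes were. Calls of Pcna and of Cdc6 (-0.18 ± 0.07, adjusted p = 0.026) were weak: Pcna's was lost without KO 1-month replicate 1 (0.14, adjusted p = 0.069) or WT 1-month replicate 4 (0.14, adjusted p = 0.073) and with library totals (0.11, adjusted p = 0.082). That of Cdc6 was lost without KO 1-month replicate 4 (-0.13, adjusted p = 0.17) or WT 1-month replicates 1 or 4 (adjusted p = 0.056 and 0.06). Summed osteoclast markers were 1700 to 1780 CPM in KO and 3470 to 3630 CPM in WT, and 13 macrophage markers summed to 47400 to 50900 CPM and 29100 to 31700 CPM. Neutrophil markers summed to 75.7 to 80.2 CPM in KO and 25.1 to 34.3 CPM in WT. Their part in the difference was not tested.

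At 6 months the direction was the reverse for most members. All 17 G1/S members were higher in KO than in WT, with a median log2 fold change of 0.61, and 16 of 24 G2/M members were higher, with a median of 0.26, against 30.5% of all genes. Rrm2 (1.03 ± 0.06, adjusted p = 5.2e-17) and Ccne1 (1.03 ± 0.08, adjusted p = 1.4e-12) rose most, both 2.04-fold, followed by Gins2, Pcna (0.99 ± 0.06) and E2f1 (0.97 ± 0.07). Cdc6, Mcm5 and Ccne2 rose 1.6-fold, 1.53-fold and 1.47-fold. Of the G2/M members Birc5, the survivin subunit of the chromosomal passenger complex (0.85 ± 0.10, adjusted p = 2.3e-09), and Ube2c (0.74 ± 0.07, adjusted p = 1.7e-10) rose most. Cdc20 rose 1.44-fold, Cdk1 1.41-fold and Plk1 1.3-fold. In contrast, 4 G2/M members were lower, where 29.5% of all genes were: Mki67 (-0.33 ± 0.09, adjusted p = 0.0018), the kinetochore genes Cenpf (-0.29 ± 0.09, adjusted p = 0.007) and Cenpe (-0.22 ± 0.08, adjusted p = 0.015), and the checkpoint gene Bub1b (-0.18 ± 0.07, adjusted p = 0.02). Top2a (0.10 ± 0.06, adjusted p = 0.16), Bub1 (-0.05 ± 0.06, adjusted p = 0.47), the motor gene Kif11 (-0.02 ± 0.06, adjusted p = 0.78) and Kif20a (0.14 ± 0.07, adjusted p = 0.087) passed in neither direction. Without KO 6-month replicate 3 the calls of Cenpf (-0.21, adjusted p = 0.071) and Cenpe (-0.16, adjusted p = 0.12) were lost, and that of Cenpe also without WT 6-month replicate 4 (-0.16, adjusted p = 0.12). That of Bub1b was lost without WT 6-month replicate 2 or 4 or KO 6-month replicate 2 (adjusted p = 0.053 to 0.069), and that of Ccnb1 (0.17 ± 0.05) with library totals (0.09, adjusted p = 0.17). Osteoclast markers summed to 3590 to 3960 CPM in KO and 22500 to 24300 CPM in WT, and macrophage markers to 27900 to 28600 and 11600 to 11800 CPM. Neutrophil markers summed to 30 to 40.8 CPM in KO and 3.09 to 4.15 CPM in WT, and stromal markers to 832 to 900.0 and 1310 to 1700 CPM. Their part was not tested.

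The difference between the 2 genotype effects, in unprefixed groups only, was itself tested and passed for all 41 members, each more positive at 6 months, where 27.1% of all genes did. Its median was 0.95 for G1/S and 0.97 for G2/M members. It was largest for Birc5 (1.64 ± 0.13, adjusted p = 3.6e-12), Ube2c (1.6 ± 0.10, adjusted p = 2e-14) and Cdc20 among G2/M and for Rrm2 (1.51 ± 0.08, adjusted p = 1.4e-16) and Tk1, thymidine kinase (1.12 ± 0.08, adjusted p = 3e-13), among G1/S members. It was smallest for Cenpe (0.43 ± 0.11, adjusted p = 0.0015) and Cenpf, and Mki67 was at 0.57 ± 0.13. In the separate comparisons, which share no library, 13 of 17 G1/S and 16 of 24 G2/M members were called lower at 1 month and higher at 6 months, against 5.46% of all genes. Pcna was called higher at both ages, as 10.9% of all genes were, and Mki67, Cenpf, Cenpe and Bub1b lower at both, as 8.63% were. Against set D1, the other WT 1-month group, the 1-month medians of unprefixed KO were 2.12 for G1/S and 1.94 for G2/M. These are above the 6-month medians of 0.61 and 0.26, and the difference of effects was not tested with set D1.

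KO cultures of set 519 were then set against the same WT groups, with which they share no title tag, so set and genotype cannot be told apart. At 1 month all 41 members were lower in set 519, where 29.8% of all genes were, with medians of -1.79 for G1/S and -1.93 for G2/M. Cdc6 (-2.27 ± 0.09, adjusted p = 4e-20) and Tyms (-2.19 ± 0.11) fell most of the former, and Birc5 (-2.52 ± 0.12, adjusted p = 1.5e-18) and Ube2c (-2.36 ± 0.09) of the latter. E2f1 (-0.67 ± 0.07) and Pcna (-0.76 ± 0.06) fell least. At 6 months all 24 G2/M and 12 of 17 G1/S members were lower, against 25.9% of all genes, with medians of -0.65 and -0.44. Bub1 (-1.07 ± 0.07, adjusted p = 1.9e-14), Bub1b (-1.05 ± 0.07) and Mki67 (-1.02 ± 0.09) led the G2/M members, and Cdc6 (-1.06 ± 0.09, adjusted p = 7.8e-12) and Mcm6 (-0.76 ± 0.05) the others. E2f1 (0.24 ± 0.08, adjusted p = 0.0088) and Pcna (0.20 ± 0.06, adjusted p = 0.0044) were higher, as 25.7% of all genes were, while Rrm2 (-0.10 ± 0.06, adjusted p = 0.17) passed in neither direction. With library totals in place of TMM the G1/S split was 0 higher and 14 lower, with E2f1 at 0.13 (adjusted p = 0.13), Pcna at 0.09 (adjusted p = 0.15) and Rrm2 called lower (-0.21, adjusted p = 0.0031). The call of Ccne1 (-0.31 ± 0.10) was lost without WT 6-month replicate 4 (-0.23, adjusted p = 0.099) or set 519 replicate 2 or 3 (-0.27 and -0.22, adjusted p = 0.082 and 0.11). Osteoclast markers summed to 8490 to 10000 CPM in set 519 at 1 month and 29100 to 30400 CPM at 6 months, in both cases above the WT group compared, whereas in unprefixed KO they were below it.

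**Figure D4:**
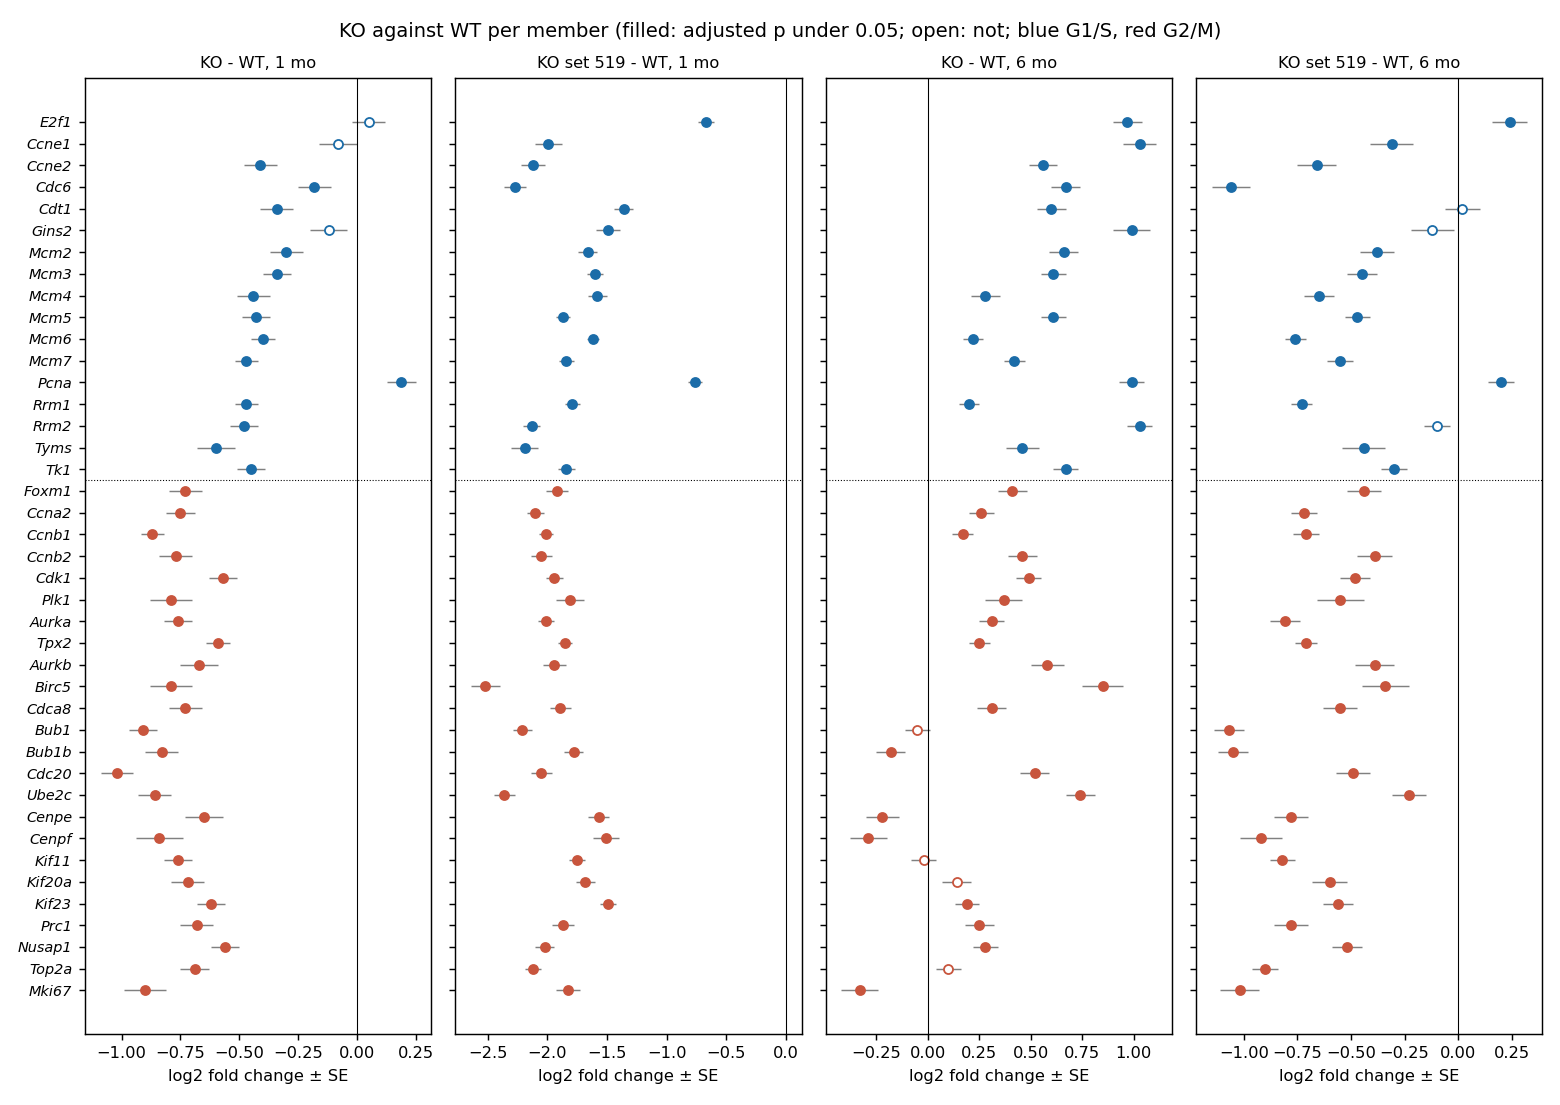
Log2 fold change (points) ± SE (bars) of each of the 41 members for KO against WT at 1 and 6 months, in unprefixed KO and in KO of set 519. Filled points passed an adjusted p of 0.05. Unprefixed KO points lie mostly left of 0 at 1 month and right of 0 at 6 months, and those of set 519 lie left of 0 at both ages except for a few G1/S members at 6 months. The panels at each age share their WT libraries, and their horizontal scales differ.

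The KO cultures with and without the number 519 have the same stated condition, yet all 41 members were lower in set 519 than in unprefixed KO at both ages, where 28.2% of all genes were at 1 month and 26.5% at 6 months. Medians were -1.37 for G1/S and -1.20 for G2/M at 1 month, and -0.98 and -0.90 at 6 months. Cdc6 fell most at both ages, 4.25-fold (-2.09 ± 0.10, adjusted p = 1.1e-18) and 3.34-fold (-1.74 ± 0.09, adjusted p = 7.9e-18), then Ccne1 (-1.91 ± 0.11 and -1.33 ± 0.10). Birc5 led the G2/M members, with -1.73 ± 0.12 at 1 month and -1.19 ± 0.11 at 6 months, followed by Ube2c (-1.50 ± 0.09) at 1 month and Aurka (-1.12 ± 0.07), a spindle pole kinase, at 6 months. All 12 osteoclast markers were higher in set 519 at both ages, with sums of 8490 to 10000 against 1700 to 1780 CPM at 1 month and 29100 to 30400 against 3590 to 3960 CPM at 6 months. How the sets differed is not stated.

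The WT 1-month multinucleated cultures with and without the D1 tag also share a stated condition. All 41 members were lower in set D1 than in unprefixed WT, where 36.9% of all genes were, with medians of -2.5 for G1/S and -2.66 for G2/M. Ube2c fell 10.6-fold (-3.41 ± 0.09, adjusted p = 1.4e-26), Birc5 9.44-fold (-3.24 ± 0.11), Mcm5 9.8-fold (-3.29 ± 0.06) and Rrm2 6.53-fold (-2.71 ± 0.06). Ccne2 fell least, with -1.69 ± 0.08. Set D1 libraries held Xist and no Ddx3y, unlike all others, their osteoclast markers summed to 46300 to 48900 CPM against 3470 to 3630 CPM, and their stromal markers to 3540 to 3860 CPM against 490.0 to 529 CPM. Set, sex and culture state cannot be told apart here.

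The direction of the genotype difference at 1 month depended on which WT group was used. Against set D1, unprefixed KO was higher for all 41 members, where 38.2% of all genes were, with medians of 2.12 and 1.94. Mcm5 (2.86 ± 0.06, adjusted p = 1.9e-28) and Gins2 (2.58 ± 0.10) led the G1/S members, and Ube2c (2.55 ± 0.09, adjusted p = 6.6e-23) and Aurkb (2.48 ± 0.10), the kinase of the passenger complex, the G2/M members. KO of set 519 was higher than set D1 for 15 of 17 G1/S and 23 of 24 G2/M members, against 31.1% of all genes, with medians of 0.74 and 0.71. Mcm5 (1.42 ± 0.07, adjusted p = 1.6e-18) and Pcna (1.36 ± 0.06) led the G1/S members, and Kif23 (1.36 ± 0.08, adjusted p = 5.9e-16), a motor of cytokinesis, and Aurkb (1.21 ± 0.12) the G2/M members. Ccne2 was lower (-0.43 ± 0.11, adjusted p = 0.00066), where 31.2% of all genes were, and Ccne1 (0.21 ± 0.13, adjusted p = 0.15) and Bub1 (-0.05 ± 0.09, adjusted p = 0.62) did not pass. Cdc6 (0.36 ± 0.12) was not called without set 519 1-month replicate 2 (0.29, adjusted p = 0.062) or 3 (0.30, adjusted p = 0.13). All 12 osteoclast markers were lower in both KO groups, with sums of 1700 to 1780 CPM and 8490 to 10000 CPM against 46300 to 48900 CPM in set D1.

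Donor age was compared next within unprefixed WT multinucleated cultures. Set D1, also WT 1-month, was not part of these comparisons, and its G1/S and G2/M means were 4.58 and 4.13 log2 CPM. They lay below the 6.08 and 6.28 of WT 6-month and the 5.82 and 6.12 of WT 20-month cultures, the reverse age order. From 1 to 6 months all 17 G1/S and 20 of 24 G2/M members fell, with medians of -0.87 and -0.54, against 32.5% of all genes. Ccne1 (-1.30 ± 0.08, adjusted p = 2.7e-15) and Rrm2 (-1.25 ± 0.06, adjusted p = 2.7e-19) fell most of the G1/S members, and Birc5 (-1.30 ± 0.10, adjusted p = 8e-14) and Ube2c (-1.09 ± 0.07, adjusted p = 1.1e-14) of the G2/M members. Pcna fell 2.16-fold and Cdk1 1.94-fold, but Top2a only 1.26-fold. The 4 that did not pass were Mki67 (0.07 ± 0.09, adjusted p = 0.48), Cenpf (0.19 ± 0.09, adjusted p = 0.066), Cenpe (-0.02 ± 0.08, adjusted p = 0.86) and Bub1b (-0.12 ± 0.07, adjusted p = 0.11). Mki67, Cenpf and Cenpe are, with Top2a, the 4 members of greatest exon length in the class. From 1 to 20 months 17 of 17 and 21 of 24 fell, against 34.4% of all genes, with medians of -1.14 and -0.66. The largest falls were those of Ccne1 (-1.59 ± 0.09, adjusted p = 1.7e-17) and Rrm2 (-1.52 ± 0.06) in G1/S, and of Birc5 (-1.47 ± 0.10) and Ube2c (-1.27 ± 0.07) in G2/M. Mki67 (-0.17 ± 0.09, adjusted p = 0.09) did not pass, though it did without WT 1-month replicate 1 (-0.29, adjusted p = 0.0032) or WT 20-month replicate 2 (-0.24, adjusted p = 0.036). Both comparisons share the 1-month libraries. All 12 osteoclast markers rose in them, from sums of 3470 to 3630 CPM at 1 month to 22500 to 24300 CPM at 6 and 24900 to 26600 CPM at 20 months. Macrophage markers summed to 29100 to 31700, 11600 to 11800 and 10400 to 10800 CPM at these ages, and stromal markers to 490.0 to 529, 1310 to 1700 and 2580 to 2990 CPM. Their part was not tested.

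From 6 to 20 months, over which 2 of 12 osteoclast markers rose, 1 fell and the stromal sum went from 1310 to 1700 to 2580 to 2990 CPM, no member moved by more than 0.40 on the log2 scale. The part of the markers was not tested. Of the G1/S members 13 of 17 fell and of the G2/M members 11 of 24, against 6.9% of all genes, with medians of -0.27 and -0.19. Cdc6 (-0.40 ± 0.08, adjusted p = 0.00026) and Mcm5 (-0.37 ± 0.06, adjusted p = 1.8e-05) fell most of the G1/S members, and Aurkb (-0.32 ± 0.08, adjusted p = 0.0067) and Ccnb1 (-0.30 ± 0.05, adjusted p = 0.00015) of the G2/M members. E2f1 (-0.13 ± 0.07, adjusted p = 0.26), Plk1 (-0.08 ± 0.10, adjusted p = 0.67), Cdc20 (-0.20 ± 0.08, adjusted p = 0.073) and Mki67 (-0.25 ± 0.09, adjusted p = 0.063) did not pass. Single libraries decided the counts: without WT 20-month replicate 4 they were 6 and 4, and the G2/M count was 5 without WT 6-month replicate 4 and 6 without WT 20-month replicate 1. Aurkb (-0.27, adjusted p = 0.062) and Cdk1 (-0.22, adjusted p = 0.059) were not called without WT 20-month replicate 4. Ccne1 (-0.29 ± 0.09), Ccne2 (-0.26 ± 0.08) and Top2a (-0.24 ± 0.06) also lost their calls without WT 6-month replicate 4 (adjusted p = 0.22, 0.1 and 0.051) or WT 20-month replicate 4 (adjusted p = 0.073, 0.17 and 0.061), and Ccne1 without WT 20-month replicate 1 or 2 (adjusted p = 0.13 and 0.051). Mki67 was called without WT 20-month replicate 2 (-0.31, adjusted p = 0.036). In 2-day cultures of the same ages 4 of 17 G1/S members were lower at 20 months, led by Gins2 (-0.38 ± 0.09, adjusted p = 0.0017) and Mcm2 (-0.28 ± 0.07, adjusted p = 0.0039), where 11.3% of all genes were. Of the G2/M members 6 were higher, led by Cenpf (0.33 ± 0.09, adjusted p = 0.0064) and Cenpe (0.31 ± 0.08, adjusted p = 0.0038), where 7.48% of all genes were, and Cdc20 was lower (-0.20 ± 0.07, adjusted p = 0.046). Cenpf and Cenpe are among the 8 members of greatest exon length in the class, and Cdc20 is among the 8 shortest. Without 6-month 2-day replicate 2 the counts were 2 and 3, with Mcm2 at -0.21 (adjusted p = 0.071) and Top2a at 0.20 (adjusted p = 0.061), and the call of Cdc20 was lost without any of 5 of the 6 libraries (adjusted p = 0.055 to 0.29). With library totals the G2/M split was 6 higher and 0 lower. Osteoclast markers summed to 4410 to 5010 and 5390 to 5530 CPM in the 2-day cultures of 6 and 20 months.

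In KO cultures the age difference ran the other way from that in unprefixed WT. From 1 to 6 months 23 of 24 G2/M members rose in unprefixed KO, with a median of 0.46, against 19.7% of all genes, and Cdk1 was the exception (0.11 ± 0.06, adjusted p = 0.17). Cdc20 (0.75 ± 0.07, adjusted p = 4.4e-10), Cenpf (0.74 ± 0.10, adjusted p = 1.1e-07) and Mki67 (0.64 ± 0.09) rose most. Of the G1/S members 6 of 17 rose, with a median of 0.12, among them Tyms (0.28 ± 0.08, adjusted p = 0.006) and Rrm2 (0.26 ± 0.06, adjusted p = 0.00038), and Pcna fell (-0.30 ± 0.06, adjusted p = 4.9e-05), where 17.8% of all genes did. That count was 3 without KO 1-month replicate 1, where Mcm5 was at 0.15 (adjusted p = 0.063), or KO 6-month replicate 2, and 11 with library totals. In set 519, 24 of 24 G2/M and 14 of 17 G1/S members rose, against 19.2% of all genes, with medians of 0.77 and 0.47. Ube2c (1.04 ± 0.10, adjusted p = 1.9e-10) and Nusap1 (0.92 ± 0.09), a spindle protein gene, rose most of the G2/M members, and Tyms (0.97 ± 0.13, adjusted p = 1.6e-07) and Rrm2 (0.78 ± 0.07) of the G1/S members. Pcna fell by a margin at the threshold (-0.15 ± 0.06, adjusted p = 0.049), where 13.2% of all genes did, and was not called without set 519 1-month replicate 2 (-0.08, adjusted p = 0.38) or any 1 of the 3 set 519 6-month libraries (adjusted p = 0.062 to 0.14). Nor was Cdc6 (0.34 ± 0.12) called without set 519 1-month replicate 3 or 4 or 6-month replicate 2 or 3 (adjusted p = 0.076 to 0.17), nor Ccne1 (0.39 ± 0.13) without replicate 4 of either age (0.31, adjusted p = 0.079 and 0.12). All 12 osteoclast markers rose in both, from sums of 1700 to 1780 to 3590 to 3960 CPM in unprefixed KO and from 8490 to 10000 to 29100 to 30400 CPM in set 519.

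Other genes of the same pathways were counted beside the members. Of all genes tested 27.4% fell from 2-day to multinucleated cultures at 6 months, 20.8% were lower in KO at 1 month, and 30.5% were higher and 29.5% lower in KO at 6 months. Of 44 further replication genes these counts were 41, 38, and 36 higher and 3 lower. Of 46 further mitosis genes they were 45, 45, and 32 higher and 1 lower. Fbxo5, an inhibitor of the anaphase-promoting complex (-0.98 ± 0.09, adjusted p = 6.4e-11), and Orc1 of the origin recognition complex (-1.0 ± 0.12, adjusted p = 8.9e-09) fell with maturation at 6 months. Of 14 E2F and DREAM complex genes 7 were lower in KO at 1 month, led by Mybl2, which encodes B-MYB (-1.0 ± 0.08, adjusted p = 9.8e-13), and 8 were higher in KO at 6 months, led by E2f2 (1.56 ± 0.09, adjusted p = 8.7e-17). Of 10 genes of CDK inhibitors and pocket proteins 5 were higher and 3 lower in KO at 6 months. Cdkn1a, which encodes the p53-inducible inhibitor p21, was 508 ± 3.72 CPM in KO and 194 ± 13.6 CPM in WT at 6 months (1.39 ± 0.05, adjusted p = 4.3e-21), and 734 ± 13.9 and 556 ± 34.1 CPM at 1 month (0.40 ± 0.05, adjusted p = 1.6e-07). Cdkn2a, which encodes p16 and ARF, was 37.7 ± 1.68 and 14.4 ± 0.715 CPM at 6 months (1.39 ± 0.11, adjusted p = 6.9e-13) and did not pass at 1 month (0.13 ± 0.10, adjusted p = 0.35). Ccnd1, the cyclin D1 gene that responds to mitogens, was higher in KO at both ages, with 947 ± 49.1 against 613 ± 44.2 CPM at 1 month (0.63 ± 0.06, adjusted p = 5.6e-10) and 639 ± 12.4 against 218 ± 9.48 CPM at 6 months (1.55 ± 0.06, adjusted p = 1.9e-20). In unprefixed KO, Cdkn1a and Ccnd1 were thus higher both where the members were mostly lower and where they were mostly higher. Set 519 against the same WT groups differed from this at 1 month, with Ccnd1 lower (-0.40 ± 0.06, adjusted p = 2.5e-06), Cdkn1a not called (0.05 ± 0.05, adjusted p = 0.42) and Cdkn2a higher (1.24 ± 0.11, adjusted p = 4.4e-12). At 6 months Ccnd1 (0.80 ± 0.06, adjusted p = 1.8e-12), Cdkn1a (0.96 ± 0.06, adjusted p = 3.9e-16) and Cdkn2a (1.99 ± 0.11, adjusted p = 4.5e-16) were all higher in set 519.

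Within the G2/M class, the size of several differences went with exon length. Across the 24 members, Spearman's rho between exon length and log2 fold change was 0.70 for WT at 6 against 1 month, -0.67 for KO against WT at 6 months and 0.25 for KO against WT at 1 month, given as descriptions across genes, which share libraries and are not independent. The 8 shortest members (1531 to 3796 bases, among them Birc5, Ube2c, Cdc20 and Aurkb) had a median of -0.80 for WT at 6 against 1 month, and the 8 longest (5177 to 15433 bases, among them Cenpf, Mki67, Top2a and Cenpe) of -0.33. For KO against WT at 6 months these medians were 0.49 and 0.14. The 4 members called lower there were thus long genes but for Bub1b, of middle length. The link was not confined to this class: over the 17 G1/S members rho was 0.63 and -0.52 for these 2 comparisons. Over 46 further mitosis genes it was 0.72 and -0.62, and over all 15310 genes 0.20 and -0.12. For the fall from 2-day to multinucleated cultures rho over the 24 members was 0.44 at 6 months and -0.39 at 20 months, and for the difference between these falls -0.67, with medians of -0.09 for the 8 shortest and -0.31 for the 8 longest members. For the genotype difference at 6 against 1 month it was -0.75, with medians of 1.24 and 0.80, and over the 17 G1/S members -0.13. In 2-day cultures at 20 against 6 months rho over the 24 members was 0.67. Medians there were -0.11 for the 8 shortest and 0.07 for the 8 longest, and rho over the G1/S members was -0.12. Replicates of 1 group also differed: Cenpf and Mki67 were lowest in replicate 1 of both WT and KO 1-month. Cenpf was 51.7 against 69 and 70.7 CPM in WT and 31.5 against 41.3 and 34.8 CPM in KO. Birc5 was highest in these libraries, with 118 against 87.9 and 92.4 and 68.1 against 46 and 57.4 CPM. Kif20a, also among the 8 shortest, was lowest there, with 82.4 against 90 and 97.6 and 48.6 against 56.7 and 58.8 CPM. RNA quality values were not at hand, and the part of length in these differences was not tested.

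**Figure D5:**
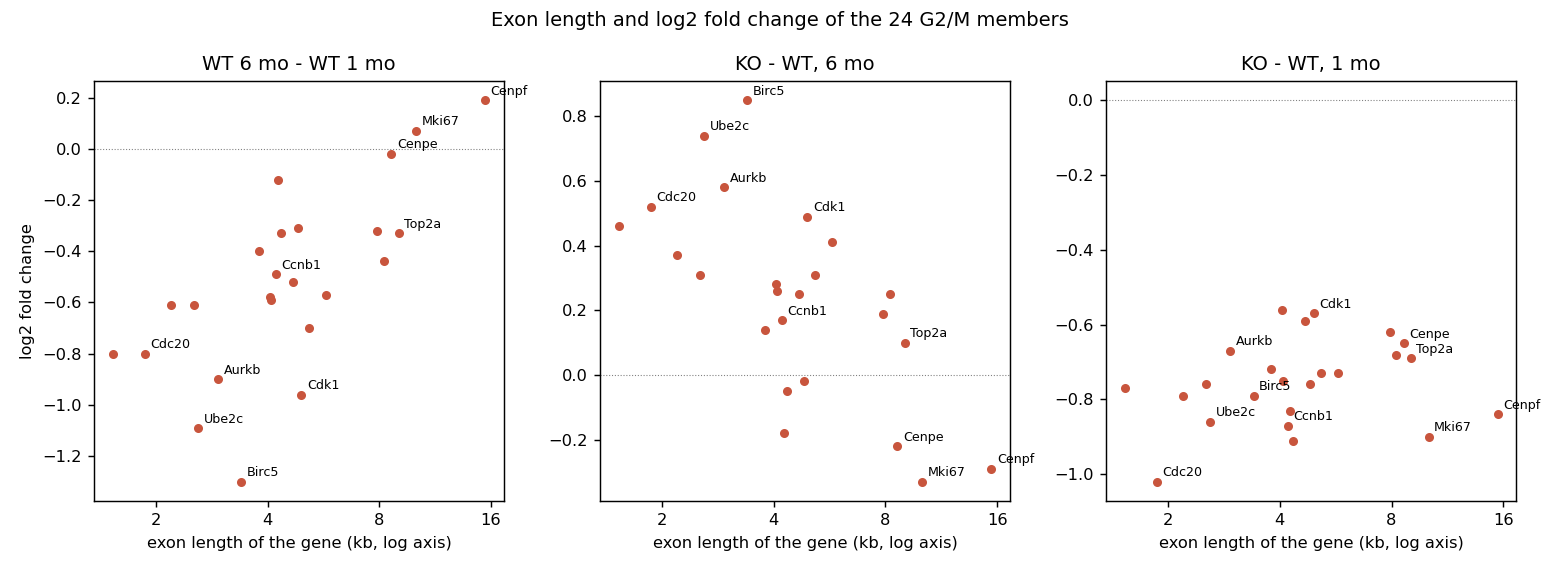
Log2 fold change (vertical axis) against exon length (horizontal axis, log scale, kb) for the 24 G2/M members in 3 comparisons. Long members such as Cenpf and Mki67 lie at the top for WT 6 against 1 month and at the bottom for KO against WT at 6 months, and no such slope is seen for KO against WT at 1 month. The vertical scales differ.

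Some members share exonic bases with a gene on the opposite strand, and the counting is not recorded as strand-specific. Reads from shared bases may thus have been dropped from both genes, or their counts may hold reads of the partner. The longest shared stretches were 2758 bases for Gins2 with Gse1, 1259 for Kif20a with Cdc23, 911 for Prc1 with Rccd1, 609 for Ccne2 with Ints8, 592 for Ube2c with Tnnc2 and 510 for Ccna2 with Exosc9. Over all libraries Tnnc2 held 8 counts against 40484 for Ube2c, Gse1 held 17010 against 15332 for Gins2, and Ints8 17599 against 22647 for Ccne2. Cdc20 shares 53 bases with Elovl1, which held 88886 counts against its 34258. Values of these members are uncertain to that extent.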

How the data were processed

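RNA of 30 libraries (10 groups of 3) was oligo(dT)-selected and sequenced on an Illumina instrument, per the labels. The authors deposited raw counts per gene, made with featureCounts 1.6.0 on Ensembl 88 of GRCm38 per the file headers, while the submitters' processing notes name HTSeq and mm10. The headers record no strand setting. Symbols from the reference tables matched 99.39% of the 50686 gene IDs.

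The counts were scaled by TMM (factors 0.895 to 1.11), filtered with filterByExpr to 15310 genes, and tested with edgeR 4.0.16 (quasi-likelihood, R 4.3.3, limma 3.58.1) in a fit of all groups (20 residual degrees of freedom), with Benjamini-Hochberg adjustment over all genes and a threshold of 0.05. Fold changes are those of the edgeR fit. A prior count of 2 was used only for log2 CPM in the check of replicate numbers and in a further alternative for class medians. The code was tested on simulated data. Total counts per library, 4269798 to 25147975, set the counting precision; the lowest member count in any library was 27 (Cdc6).

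The 41 genes and all gene lists were chosen with earlier results of these data known. Named are 13 sentinel genes, the 2 members of each class with the largest called change per comparison, members called against their class, and from other lists the 2 largest called changes, Cdkn1a, Cdkn2a and Ccnd1; not every gene so defined is printed for each comparison. A few further members are named after their values were seen. Alternatives were DESeq2 1.42.0, library totals, no filter, only the compared groups, a replicate block and leaving out each library. No 2 replicate libraries agreed within sampling noise (chi-square per degree of freedom 1.28 to 22.3). The highest values were 22.3 for KO 1-month replicates 1 and 2, and 21.2 and 17.5 for WT 1-month replicate 1 against replicates 4 and 3.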

Additional observations from a re-analysis of the deposited data

Results flagged for a closer look

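The change from 2-day to multinucleated cultures differed between 6-month and 20-month WT donors, by a test of the difference of the changes in edgeR, for 3 of 17 G1/S members (Cdc6, Rrm2 and Rrm1) and for 9 of 24 G2/M members, with the larger fall at 20 months in each. Of all genes 4.86% were called in that direction. These counts were not firm, at 2 to 4 and 3 to 11 with 1 library left out.

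In unprefixed groups the KO against WT difference differed between 1-month and 6-month donors, by the same kind of test, for all 17 G1/S and all 24 G2/M members, with the more positive difference at 6 months in each. Of all genes 27.1% were called in that direction. The difference was not tested with set D1 as the 1-month WT group.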

How the results depend on the processing

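Of 442 recomputed member counts 426 stayed within 1.5 times the reported count. Of 3381 recomputed fold changes of single genes, 82 lost and 25 gained a call. None was called in opposite directions, and no lost or gained call came with a change of sign. Signs of genes called in neither fit were not compared. With library totals the count of G1/S members higher in KO at 6 against 1 month was 11 (reported 6), and without the filter or with only the compared groups it was 3. For the larger fall with maturation at 20 months, the G1/S count of 3 was 1 without the filter and 6 with only the compared groups, and the G2/M count of 9 was 14 with only the compared groups. Leaving out 1 library at a time gave 6 to 13 G1/S and 4 to 12 G2/M members lower in WT at 20 against 6 months, 2 to 4 and 3 to 6 in the 2-day cultures of these ages, 3 to 5 for G1/S in KO by age, and 3 to 11 for G2/M in the test of maturation by age. Library totals change only the scaling, and the other alternatives change the genes tested or the samples. The cause of the differences was not tested.

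Splits by direction moved by over 10 percentage points in 3 comparisons. In KO of set 519 against WT at 6 months the G1/S split was 0 higher and 14 lower with library totals (reported 2 and 12). In 2-day cultures the G2/M split was 6 and 0 with library totals, 4 and 2 without the filter and 6 and 2 with only the compared groups (reported 6 and 1). In KO by age the G1/S split was 5 and 2 with DESeq2 and 3 and 1 without the filter or with only the compared groups (reported 6 and 1). Library totals moved the median of all genes by -0.11 to 0.13 on the log2 scale, the other settings by no more than 0.06. Of 480 recomputed class medians 94 moved by more than the replicate spread, by at most 0.13, and 0 changed sign; they were ranked as descriptions beside the counts after these shifts had been seen.

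Replicate numbers are shared between groups, and deviations of same-numbered libraries had correlations of -0.152 to 0.261. The highest was that of replicate 1 of KO and of WT at 1 month. A differently numbered pair, WT 1-month replicate 1 and set 519 1-month replicate 2, reached 0.197. The numbers were used only to name libraries, and whether the replicates 1 of 1 month were paired was not tested. With the replicate block, 17 G2/M members were higher in KO at 6 months (16 without it), with Bub1b at -0.15 (adjusted p = 0.059 by edgeR), the 2-day G2/M split was 5 and 0, and all 38 counts stayed within 1.5 times. Depth was lowest in set 519, and no source explains that set or set D1.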
